A study of Danio rerio with 6 samples.

Results

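The genes described here act in mitosis: they encode Cdk1 and its cyclins, the spindle and checkpoint kinases, kinetochore and condensin proteins, and the proteins of cytokinesis. They were chosen by symbol from a list of 43 names, of which 41 matched the deposited table. One name, ube2c, stood for 2 records, so 42 of the table's 25432 gene records are members, and 41 of these passed the filter on low counts along with 20012 records in all. The names cenpa and incenp were matched to no record and are not analysed here as members. Poly(A) RNA of whole zebrafish embryos was sequenced 72 h after fertilization, in 3 libraries of embryos that received the wbp11 morpholino (wbp11-MO) and 3 of embryos that received the control one (control-MO), with 50 embryos pooled for each library. Morpholinos are synthetic antisense strands that stop a target RNA from being translated or correctly spliced, and the labels give neither the mode of the wbp11 morpholino nor its dose or the strain, and no genetic mutant was analysed here. Wbp11 takes part in pre-mRNA splicing, and the series title names VACTERL association, a pattern of human birth defects, as the condition modelled.

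Mitosis is driven by the kinase Cdk1 bound to its cyclins. Messenger RNAs of the B-type cyclins accumulate in G2, and the B-type cyclin proteins are destroyed as anaphase begins. Condensin compacts the chromosomes, kinetochores tie them to the spindle, and the spindle checkpoint holds back the anaphase-promoting complex until every kinetochore is attached. Because these RNAs are abundant only in cells that divide, they mark proliferating tissue, which in zebrafish larvae includes the ventricular zones of the brain and the ciliary margin of the retina. Whole-embryo RNA does not show whether more cells carried such an RNA or each cell carried more of it.

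Messenger RNA of the targeted gene was not lower in the libraries labelled wbp11-MO. With the 2 records named wbp11 summed, the level was 33.5, 34.9 and 35.9 CPM (the gene's counts over the scaled library total) in the wbp11-MO libraries, against 23.7, 19.4 and 26.0 CPM in the control-MO libraries. The log2 fold change of the sum was 0.59 ± 0.10 (SE, with an adjusted p of 7.0e-06 in edgeR). Taken alone, the record on chromosome 3 had 0.72 ± 0.12 (SE, with an adjusted p of 4.7e-06 in edgeR). The fainter record, on the sequence KN150013.1, had 0.30 ± 0.16 (SE, with an adjusted p of 0.10 in edgeR) and was not called. The transcript therefore does not check the labels, and each direction refers to the libraries as labelled. Library totals ran from 11219706 to 13669995 counts, and mitochondrial genes took from 3.63% to 3.78% of them.

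Nearly the whole set was higher in wbp11-MO embryos. Of 41 tested records 40 rose and 0 fell, by edgeR's quasi-likelihood test with Benjamini-Hochberg adjusted p under 0.05 over all genes. No member was lower at an unadjusted p under 0.05 either (0 records), and DESeq2 and limma-voom also called 0 lower. The background was broad, since 30.5% of all tested genes were called higher and 31.2% lower, 61.7% in either direction. The same 40 records had every wbp11-MO library above every control-MO library, as did 32.3% of tested genes, while 33.1% had every wbp11-MO library below. A rise of at least 2-fold was called for 24 members, against 5.9% of tested genes. Median log2 fold change was 1.07 over the members and 0.00 over all tested genes.

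The members changed by unequal amounts, but their quartiles lay closer together than those over all tested genes. Fitted log2 fold changes of the members ran from 0.20 to 1.63, with quartiles of 0.78 and 1.31, while the quartiles over all tested genes were -0.54 and 0.40. Summed over the 42 records, the level was 3421, 3383 and 3228 CPM in the wbp11-MO libraries, against 1632, 1609 and 1632 CPM in the control-MO libraries. The members together took 0.339%, 0.327% and 0.311% of all counts in wbp11-MO embryos, against 0.165%, 0.168% and 0.166% in control-MO embryos. Every wbp11-MO library was thus high and no library of either group stood between the groups.

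**Figure D1:**
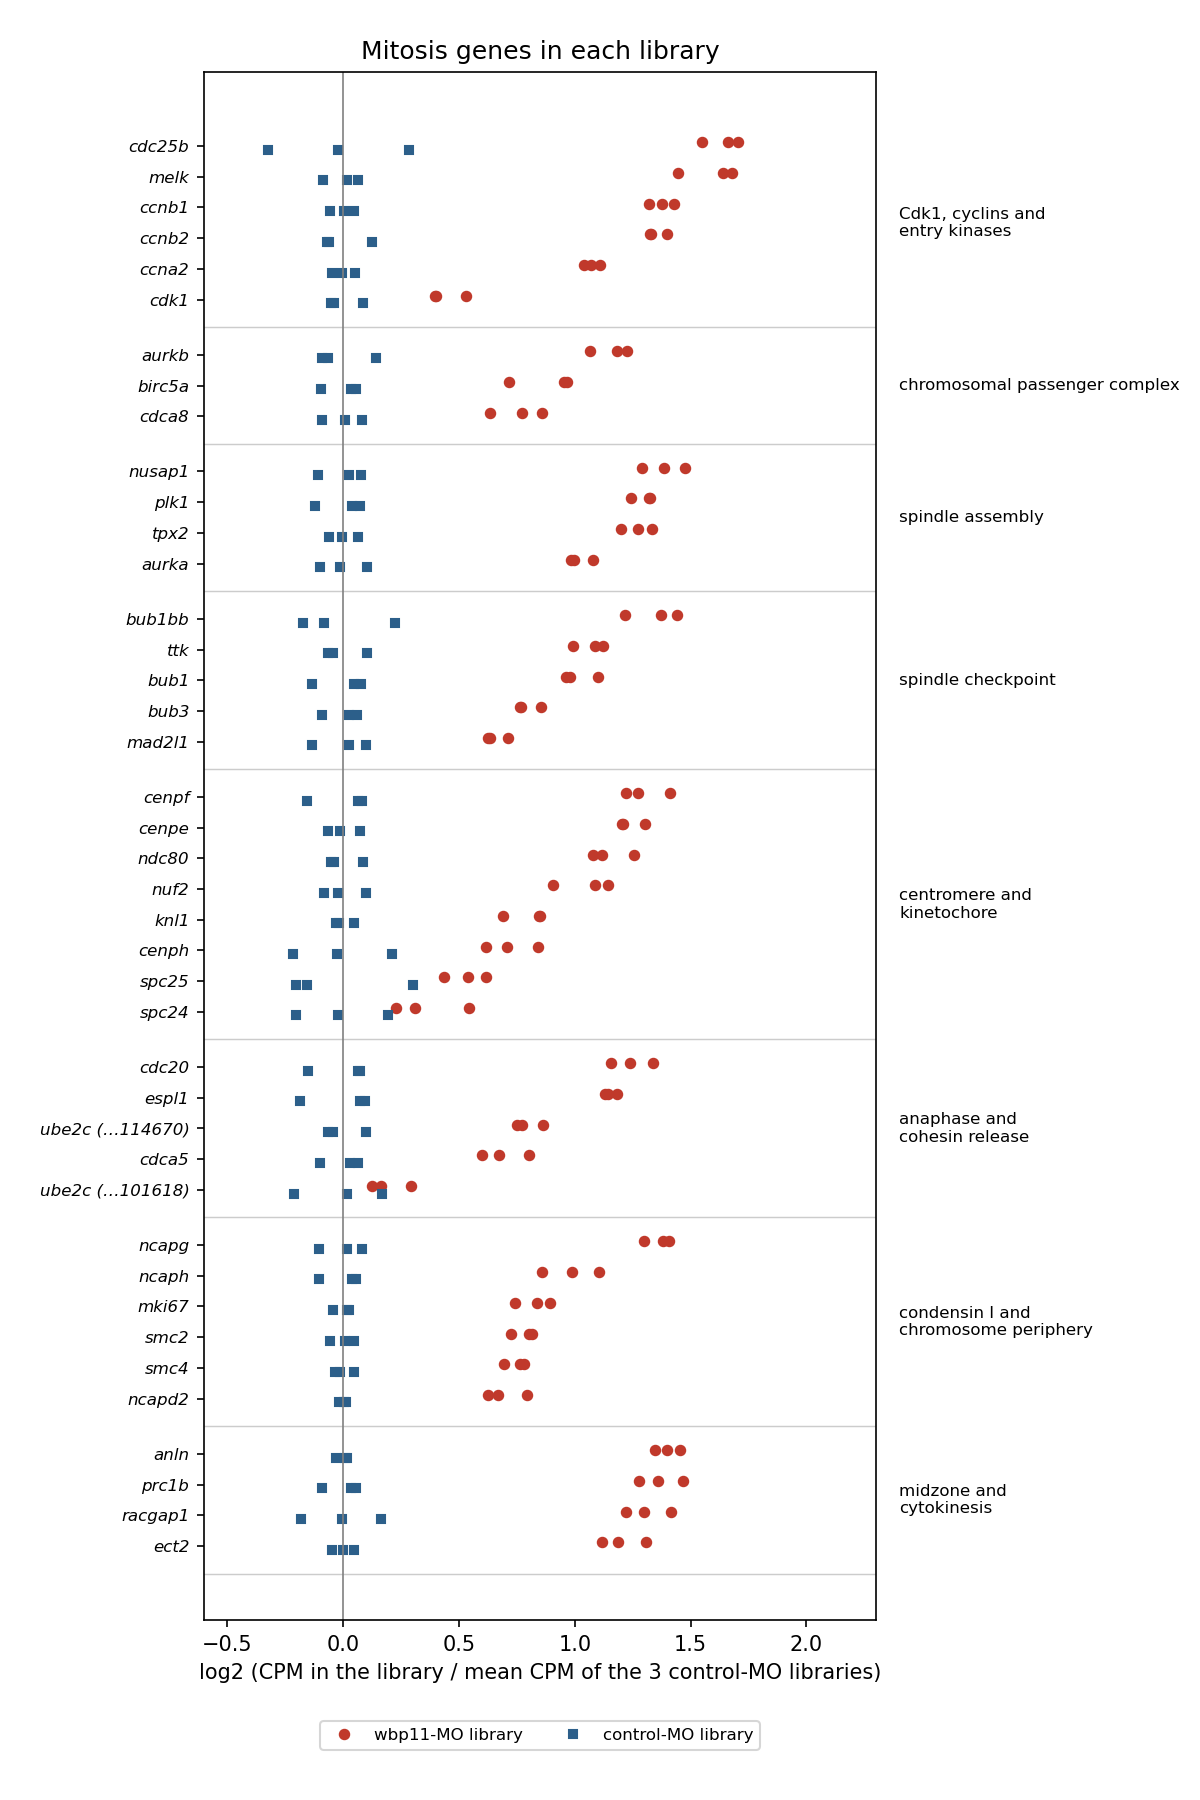
Each row is a tested member, grouped by role; the x axis gives log2 of its CPM in a library over the mean CPM of the 3 control-MO libraries, with circles for wbp11-MO and squares for control-MO libraries. The circles lie right of the squares in 40 of 41 rows, and the lower ube2c record is the exception.

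**Figure D2:**
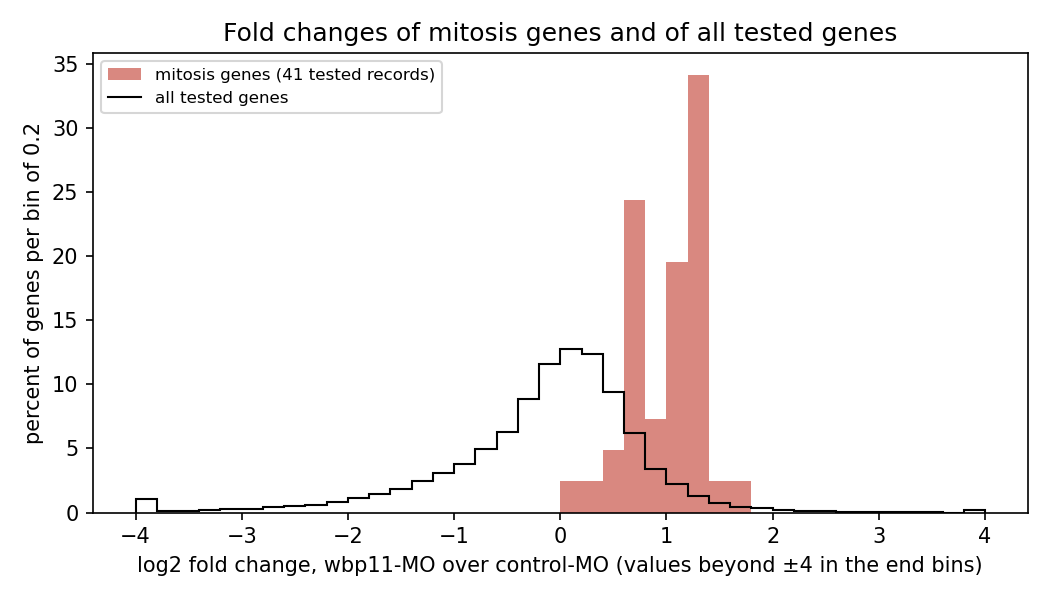
The filled steps give the percent of the 41 tested members, and the line the percent of all 20012 tested genes, in bins of 0.2 of the log2 fold change of wbp11-MO over control-MO (x axis; values beyond 4 in either direction stand in the end bins). The members lie between 0.20 and 1.63, while all genes spread to both sides of 0.

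RNA of cdk1, of its cyclins and of the entry genes cdc25b and melk rose, but by unequal amounts. The B-type cyclin gene ccnb1 (chromosome 5, 54711027 to 54714789, GRCz11) stood at 132, 136 and 127 CPM in the wbp11-MO libraries, against 50.8, 48.9 and 52.5 CPM in the control-MO libraries, a log2 fold change of 1.37 ± 0.06 (SE, with an adjusted p of 1.7e-18 in edgeR). The gene of cyclin A2, ccna2 (chromosome 14, 46354648 to 46374870), which acts in S phase and G2, had 103, 101 and 98.3 CPM in wbp11-MO embryos and 49.7, 47.7 and 46.3 CPM in control-MO embryos, a log2 fold change of 1.07 ± 0.06 (SE, with an adjusted p of 1.9e-15 in edgeR). In both genes the lowest wbp11-MO library lay far above the highest control-MO library. The second B-type cyclin, ccnb2, averaged 15.5 ± 0.462 CPM in wbp11-MO embryos and 6.09 ± 0.475 CPM in control-MO embryos (SD, n = 3 each), and its log2 fold change was 1.35 ± 0.15 (SE). The kinase gene cdk1 itself (chromosome 17, 20923691 to 20929461) had 68.1, 62.2 and 62.2 CPM with the wbp11 morpholino and 50.1, 45.5 and 45.9 CPM with the control morpholino. Its groups did not overlap, yet its log2 fold change of 0.44 ± 0.07 (SE, with an adjusted p of 2.6e-06 in edgeR) was among the 3 smallest of the set.

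The largest rises of the set belonged to cdc25b and melk. The phosphatase gene cdc25b (chromosome 13, 14915344 to 14929236), whose product removes inhibitory phosphates from Cdk1, had 55.7, 57.4 and 51.5 CPM in the wbp11-MO libraries and 21.4, 14.1 and 17.4 CPM in the control-MO libraries. That was a 3.10-fold rise, or 1.63 ± 0.10 on the log2 scale (SE, with an adjusted p of 1.1e-14 in edgeR). Its control-MO libraries varied by 21.0% of their mean, the widest spread within a group among the tested members. The kinase gene melk (chromosome 1, 21861387 to 21881818), known for its expression in dividing progenitors, stood at 42.4, 41.2 and 36.0 CPM in wbp11-MO embryos and 12.5, 13.4 and 13.9 CPM in control-MO embryos, a log2 fold change of 1.59 ± 0.10 (SE, with an adjusted p of 1.9e-14 in edgeR). The 3 control-MO values of melk lay close together, and all 3 wbp11-MO values were more than 2-fold above them.

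The ratio of cyclin to cdk1 RNA was higher in every wbp11-MO library than in any control-MO library, for all 3 cyclin genes. The ratio is taken within a library, from the FPKM values (counts per gene length and library total, as deposited), so scaling between libraries cancels. The log2 ratio of ccnb1 to cdk1 was 0.16, 0.34 and 0.24 in the wbp11-MO libraries, against -0.77, -0.69 and -0.59 in the control-MO libraries. Per length, ccnb1 RNA was therefore the more abundant of the pair in wbp11-MO embryos, at 1.19 times the cdk1 level on average, and the less abundant in control-MO embryos, at 0.623 times. This order depends on the gene model lengths, 2363 bases for ccnb1 and 1367 for cdk1. In CPM, which take no account of length, ccnb1 lay above cdk1 in every library of both groups. For ccna2 over cdk1 the log2 ratio averaged -1.35 ± 0.05 in wbp11-MO and -1.98 ± 0.04 in control-MO libraries, and for ccnb2 over cdk1 it averaged -2.35 ± 0.10 in wbp11-MO and -3.26 ± 0.03 in control-MO libraries (SD, n = 3 each). The ratio of ccnb1 to ccnb2 differed by only 0.02 on the log2 scale, less than its spread between libraries. In all, 22 such ratios were compared over cyclins, paralogs and the Ndc80 and condensin complexes. The groups did not overlap in 14 of them, where the two-sided exact permutation p was 0.1, the smallest that 3 against 3 libraries allow (adjusted p = 0.16 over the 22), so none can pass a threshold of 0.05. In single-gene CPM the groups were likewise apart for 32.3% of tested genes upward and 33.1% downward. The 14 of 22 ratios are thus no larger a share than that of single genes, and no share over all possible gene ratios was computed. The 3 cyclin ratios share cdk1 and restate the fold changes of the same genes, so they are not separate evidence.

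**Figure D3:**
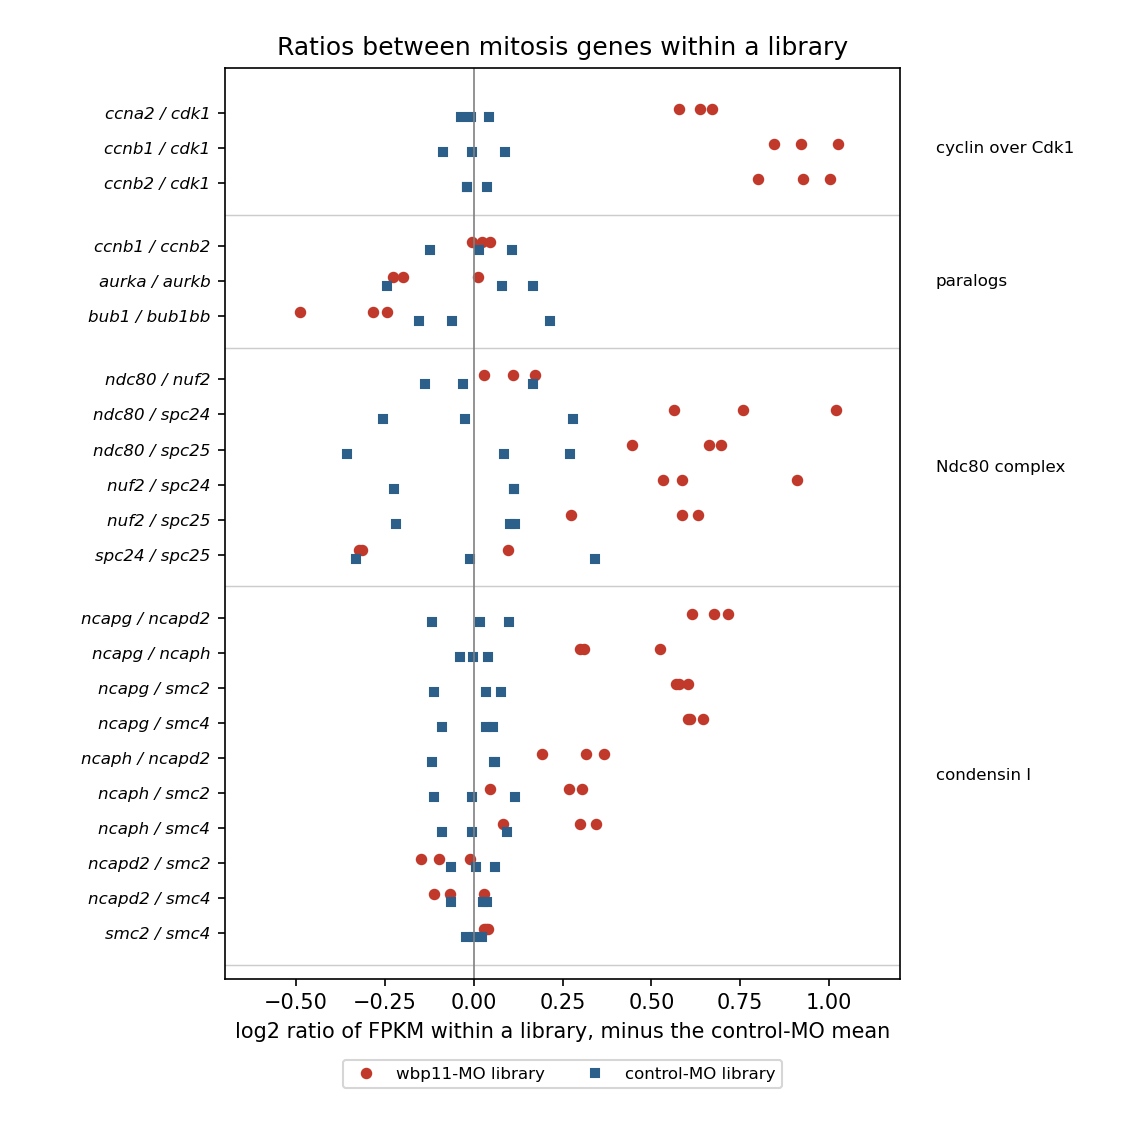
Each row is a ratio between a pair of members; the x axis gives its log2 value within a library minus the control-MO mean, with circles for wbp11-MO and squares for control-MO libraries. The ratios of cyclins to cdk1, of ndc80 and nuf2 to spc24 and spc25, and of ncapg to the other condensin I genes lie apart between the groups, while ccnb1 over ccnb2 and spc24 over spc25 overlap.

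All 4 spindle assembly genes rose at least 2-fold. The gene tpx2 (chromosome 23, 32028574 to 32039790), whose product brings Aurora A to spindle microtubules and activates it, had 191, 199 and 181 CPM in the wbp11-MO libraries, against 78.6, 75.7 and 82.4 CPM in the control-MO libraries, a log2 fold change of 1.27 ± 0.06 (SE, with an adjusted p of 2.9e-18 in edgeR). The microtubule-binding gene nusap1 (chromosome 13, 33251721 to 33256667) stood at 120.4, 128 and 113 CPM in wbp11-MO embryos and 48.6, 42.7 and 46.9 CPM in control-MO embryos, a log2 fold change of 1.38 ± 0.07 (SE, with an adjusted p of 1.3e-17 in edgeR). The lowest wbp11-MO library was more than 2-fold above the highest control-MO library in both genes. The Polo-like kinase gene plk1 averaged 126 ± 4.09 CPM in wbp11-MO and 51.3 ± 3.63 CPM in control-MO libraries (SD, n = 3 each), a 2.46-fold rise. The Aurora A gene aurka averaged 35.2 ± 1.27 CPM in wbp11-MO and 17.4 ± 1.24 CPM in control-MO libraries (SD, n = 3 each), a 2.03-fold rise.

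Of the chromosomal passenger complex, which corrects faulty attachments and later steers cytokinesis, all 3 tested members rose. Its kinase gene aurkb (chromosome 14, 240487 to 246342) had 66.2, 59.3 and 64.3 CPM in wbp11-MO embryos and 31.3, 26.6 and 27.1 CPM in control-MO embryos, a log2 fold change of 1.16 ± 0.08 (SE, with an adjusted p of 1.0e-13 in edgeR). The borealin gene cdca8 (chromosome 19, 47771659 to 47782916) had 33.6, 37.0 and 39.2 CPM in wbp11-MO embryos, against 21.7, 20.3 and 22.9 CPM in control-MO embryos, a log2 fold change of 0.75 ± 0.09 (SE, with an adjusted p of 4.0e-08 in edgeR). Both genes had their groups well apart. Survivin, the subunit that docks the complex on chromatin, is encoded by birc5a and birc5b. The gene birc5a averaged 26.4 ± 2.52 CPM in wbp11-MO and 14.3 ± 0.792 CPM in control-MO libraries (SD, n = 3 each), and its log2 fold change was 0.89 ± 0.11 (SE, with an adjusted p of 4.4e-08 in edgeR). Its paralog birc5b had 9, 0 and 1 counts in the wbp11-MO libraries and 1, 0 and 2 counts in the control-MO libraries, too few to be tested. Nearly all survivin RNA counted in either group was therefore assigned to birc5a. The scaffold of the complex is the inner centromere protein, and the table holds a record described as such under the name CABZ01058261.1 (ENSDARG00000099194, chromosome 25, 3648497 to 3672560); it falls outside the rule and was looked up after the list had been matched. It had 113, 115 and 117 CPM in wbp11-MO embryos and 55.0, 52.6 and 56.5 CPM in control-MO embryos, a log2 fold change of 1.07 ± 0.06 (SE, with an adjusted p of 8.1e-16 in edgeR).

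All 5 spindle checkpoint genes rose. The kinase gene bub1 (chromosome 20, 2610550 to 2641246) had 72.2, 71.3 and 78.4 CPM in the wbp11-MO libraries, against 38.7, 33.3 and 37.8 CPM in the control-MO libraries, a log2 fold change of 1.01 ± 0.07 (SE, with an adjusted p of 3.0e-13 in edgeR). The kinase gene ttk (chromosome 16, 5110455 to 5143176), which starts checkpoint signalling at the kinetochore, had 61.5, 60.1 and 56.1 CPM with the wbp11 morpholino and 27.4, 27.0 and 30.3 CPM with the control morpholino, a log2 fold change of 1.07 ± 0.08 (SE, with an adjusted p of 4.3e-13 in edgeR). Neither gene had overlapping groups. The largest rise among these genes was that of bub1bb, which encodes the BubR1 protein, at 35.4 ± 2.78 CPM in wbp11-MO and 13.9 ± 2.08 CPM in control-MO embryos (SD, n = 3 each), or 2.54-fold. Smaller rises were those of bub3, at 63.9 ± 2.33 CPM in wbp11-MO and 36.8 ± 2.03 CPM in control-MO embryos, and of mad2l1, at 37.6 ± 1.25 CPM in wbp11-MO and 23.9 ± 1.96 CPM in control-MO embryos (SD, n = 3 each). These encode the small adaptor and effector proteins of the checkpoint, and their log2 fold changes were 0.79 ± 0.07 and 0.65 ± 0.09 (SE). The log2 ratio of bub1 to bub1bb was 1.80, 1.56 and 1.76 in wbp11-MO and 1.89, 1.99 and 2.26 in control-MO libraries. Those groups did not overlap (exact permutation p = 0.1, the smallest that 3 against 3 libraries allow, and adjusted p = 0.16 over the 22 ratios). Aurora kinase genes showed no such separation, the log2 ratio of aurka to aurkb being -0.67, -0.43 and -0.64 in wbp11-MO and -0.69, -0.36 and -0.28 in control-MO libraries (two-sided exact permutation p = 0.4, adjusted p = 0.44 over the 22 ratios).

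All 8 kinetochore genes rose, with log2 fold changes from 0.36 to 1.31. The motor protein gene cenpe (chromosome 1, 260039 to 296057) had 149, 158 and 148 CPM in the wbp11-MO libraries, against 63.7, 67.6 and 61.5 CPM in the control-MO libraries, a log2 fold change of 1.24 ± 0.06 (SE, with an adjusted p of 1.2e-17 in edgeR). The gene cenpf (chromosome 17, 32720413 to 32743249), which encodes a large protein of the outer kinetochore, had 148, 134 and 129 CPM in wbp11-MO embryos and 58.7, 58.1 and 49.9 CPM in control-MO embryos, a log2 fold change of 1.31 ± 0.07 (SE, with an adjusted p of 7.5e-17 in edgeR). The lowest wbp11-MO library was more than 2-fold above the highest control-MO library in both. The scaffold gene knl1 averaged 71.4 ± 4.39 CPM in wbp11-MO and 41.1 ± 1.199 CPM in control-MO libraries (SD, n = 3 each), a 1.74-fold rise. The inner kinetochore gene cenph was the faintest of the tested members, at 5.31 ± 0.421 CPM in wbp11-MO and 3.21 ± 0.476 CPM in control-MO libraries (SD, n = 3 each), with a log2 fold change of 0.72 ± 0.23 (SE, with an adjusted p of 0.0085 in edgeR).

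The 4 subunits of the Ndc80 complex, the part of the kinetochore that grips microtubules, did not rise alike. The gene ndc80 (chromosome 12, 10353333 to 10365969) averaged 67.6 ± 4.40 CPM in wbp11-MO and 30.4 ± 1.63 CPM in control-MO embryos, and nuf2 averaged 35.7 ± 3.01 CPM in wbp11-MO and 17.2 ± 1.11 CPM in control-MO embryos (SD, n = 3 each). These encode the microtubule-binding arm, and their log2 fold changes were 1.15 ± 0.08 and 1.05 ± 0.10 (SE). The arm that joins the complex to the inner kinetochore is encoded by spc24 and spc25. The gene spc24 (chromosome 3, 19355869 to 19363981) had 17.0, 21.2 and 18.0 CPM in wbp11-MO embryos and 14.3, 12.6 and 16.6 CPM in control-MO embryos, so the groups were adjacent but did not overlap. Its log2 fold change was 0.36 ± 0.13 (SE, 95% interval 0.10 to 0.62, with an adjusted p of 0.015 in edgeR). This was the only call of a member lost under an alternative: without wbp11-MO replicate 2 or without control-MO replicate 2 the adjusted p was 0.11 and 0.078, and with library totals in place of TMM factors it was 0.050. The gene spc25 (chromosome 9, 48819280 to 48835494) had 23.3, 21.6 and 24.5 CPM with the wbp11 morpholino and 19.7, 13.9 and 14.4 CPM with the control morpholino, a log2 fold change of 0.53 ± 0.12 (SE, with an adjusted p of 4.4e-04 in edgeR).

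Ratios within a library restate these fold changes for the same genes, with scaling between libraries cancelled, and so are not separate evidence of the division. The log2 ratio of ndc80 to spc24 was 1.57, 1.11 and 1.31 in the wbp11-MO libraries and 0.52, 0.83 and 0.29 in the control-MO libraries, and that of ndc80 to spc25 lay between 2.56 and 2.81 in wbp11-MO and between 1.76 and 2.39 in control-MO libraries. All 4 ratios across the arms had groups that did not overlap (two-sided exact permutation p = 0.1, adjusted p = 0.16 over the 22 ratios). These 4 ratios reuse the same genes, and no share over all possible gene ratios was computed. Within an arm the groups overlapped, with a difference of 0.10 for ndc80 over nuf2 (two-sided exact permutation p = 0.3, adjusted p = 0.35) and of -0.18 for spc24 over spc25 (exact p = 0.7, adjusted p = 0.73). Per length, ndc80 RNA stood at 28.5 ± 2.28 FPKM in wbp11-MO and 13.5 ± 0.965 FPKM in control-MO embryos, and spc24 RNA at 11.4 ± 1.22 FPKM in wbp11-MO and 9.27 ± 1.16 FPKM in control-MO embryos (SD, n = 3 each). FPKM carry no TMM scaling, and on that scale the groups of spc24 overlapped, the lowest wbp11-MO library at 10.50 FPKM and the highest control-MO library at 10.53 FPKM. The spc25 level per length was the lowest of the 4 in both groups, at 4.34 ± 0.275 FPKM in wbp11-MO and 3.15 ± 0.602 FPKM in control-MO embryos (SD, n = 3 each), computed over a gene model of 5193 bases, against 2310 for ndc80.

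**Figure D4:**
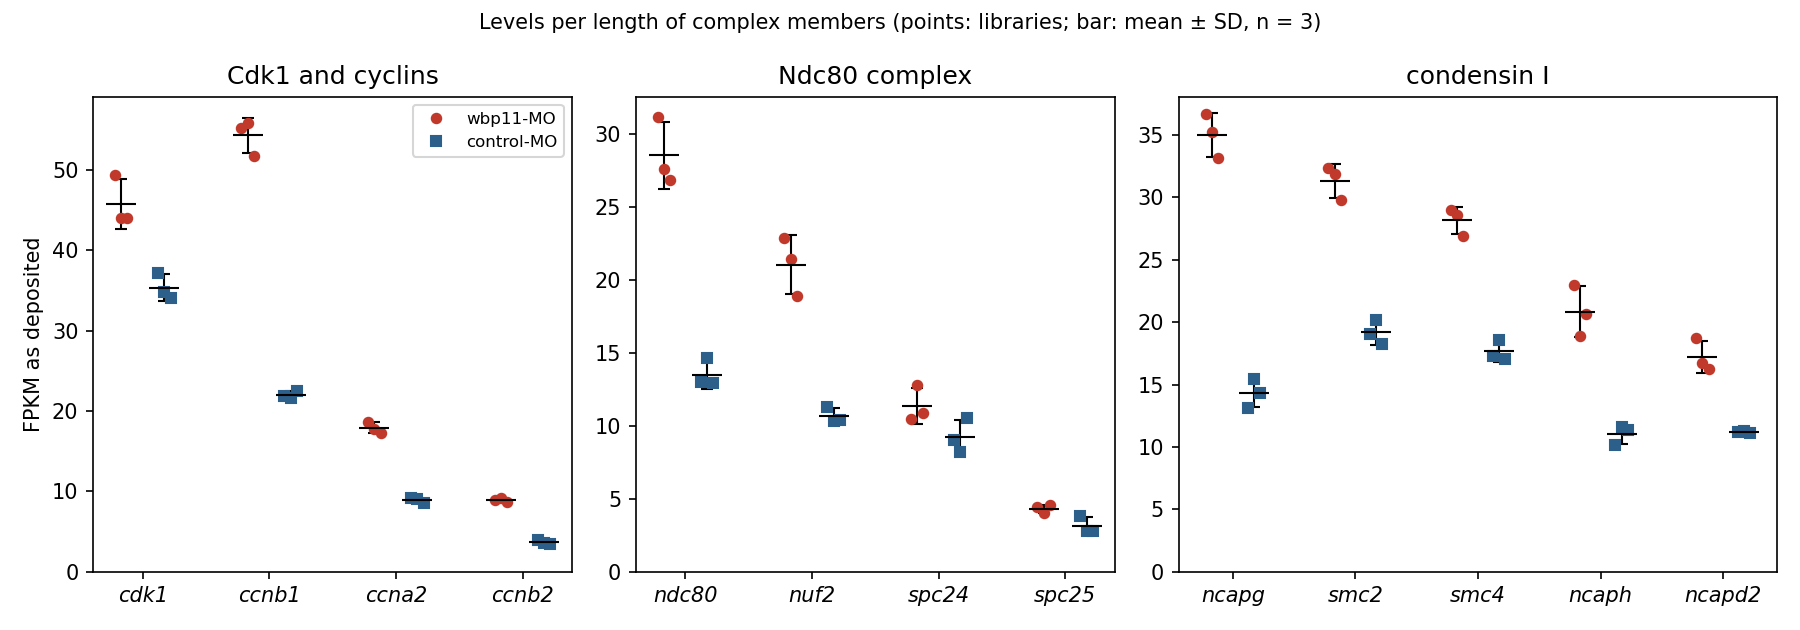
The y axis gives FPKM as deposited, on a linear scale from 0, for Cdk1 and its cyclins, the Ndc80 complex and condensin I; points are libraries, circles wbp11-MO and squares control-MO, and bars the mean ± SD of 3. In the left panel ccnb1 lies above cdk1 in wbp11-MO and below it in control-MO embryos, in the middle panel spc24 and spc25 differ least between the groups, and in the right panel ncapg stands first in wbp11-MO embryos and behind smc2 and smc4 in control-MO embryos.

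Genes that start anaphase rose as well, apart from 1 of the ube2c records. The gene cdc20 (chromosome 2, 19217586 to 19234469), whose product activates the anaphase-promoting complex, had 79.2, 84.9 and 74.8 CPM in the wbp11-MO libraries, against 35.3, 30.3 and 35.1 CPM in the control-MO libraries, a log2 fold change of 1.24 ± 0.08 (SE, with an adjusted p of 3.7e-15 in edgeR). The separase gene espl1 (chromosome 6, 39668850 to 39700965), which encodes the protease that cuts cohesin, had 65.3, 67.6 and 65.9 CPM in wbp11-MO embryos and 26.2, 31.4 and 31.8 CPM in control-MO embryos, a log2 fold change of 1.15 ± 0.08 (SE, with an adjusted p of 6.7e-14 in edgeR). In both genes every wbp11-MO library was more than 2-fold above every control-MO library. The sororin gene cdca5, whose product protects cohesin until anaphase, averaged 21.6 ± 1.55 CPM in wbp11-MO and 13.4 ± 0.798 CPM in control-MO embryos (SD, n = 3 each), a 1.62-fold rise.

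The ubiquitin-conjugating enzyme gene ube2c was the one member with more than 1 record, and only 1 of its records was called. They lie in tandem on chromosome 6, 2236 bases apart on the same strand. The record ENSDARG00000114670 (55287823 to 55297274) had 58.7, 55.2 and 54.4 CPM in wbp11-MO embryos and 34.6, 31.4 and 30.9 CPM in control-MO embryos, a log2 fold change of 0.80 ± 0.08 (SE, with an adjusted p of 2.1e-10 in edgeR). The record ENSDARG00000101618 (55299511 to 55309190) had 9.75, 10.01 and 10.95 CPM in wbp11-MO embryos and 9.04, 10.1 and 7.73 CPM in control-MO embryos, which overlapped. Its log2 fold change was 0.20 ± 0.16 (SE, 95% interval -0.13 to 0.52, with an adjusted p of 0.29 in edgeR). Copies of one gene can share reads, so the split between the records is uncertain. With both records summed, an alternative chosen after seeing the data, the levels were 68.5, 65.3 and 65.4 CPM in wbp11-MO embryos and 43.7, 41.4 and 38.6 CPM in control-MO embryos, and the log2 fold change was 0.69 ± 0.07 (SE, with an adjusted p of 8.1e-10 in edgeR).

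All 5 condensin I genes rose, ncapg the most. This HEAT-repeat subunit gene (chromosome 1, 23559478 to 23573230) had 138, 135 and 128 CPM in the wbp11-MO libraries, against 48.3, 54.9 and 52.6 CPM in the control-MO libraries, a log2 fold change of 1.36 ± 0.06 (SE, with an adjusted p of 4.1e-18 in edgeR). The kleisin gene ncaph averaged 57.4 ± 4.88 CPM in wbp11-MO and 28.9 ± 1.75 CPM in control-MO embryos (SD, n = 3 each), a 1.99-fold rise. The genes of the other HEAT-repeat subunit and of the ATPases, ncapd2, smc2 and smc4, had log2 fold changes of 0.70 ± 0.06, 0.78 ± 0.06 and 0.75 ± 0.06 (SE). Their intervals overlap one another and lie below that of ncapg. The log2 ratio of ncapg to smc2 was 0.18, 0.15 and 0.15 in wbp11-MO and -0.54, -0.39 and -0.35 in control-MO libraries, so ncapg was above smc2 per length in every wbp11-MO library and below it in every control-MO library. That order too depends on the gene model lengths, 3721 bases for ncapg and 4260 for smc2. In CPM ncapg lay below smc2 in every library of both groups. The ATPase pair kept step, with a log2 ratio of smc2 to smc4 of 0.16, 0.15 and 0.15 in wbp11-MO and 0.14, 0.12 and 0.10 in control-MO libraries. Those groups did not overlap either, but the difference was only 0.04. SMC proteins 2 and 4 also serve condensin II, whose 3 own subunit genes were on a list of other pathway genes. All 3 of these rose, with a median log2 fold change of 0.72, among them ncapd3 at 50.6 ± 2.21 CPM in wbp11-MO and 32.0 ± 1.02 CPM in control-MO embryos, and ncapg2 at 34.9 ± 1.65 CPM in wbp11-MO and 19.9 ± 2.65 CPM in control-MO embryos (SD, n = 3 each).

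The proliferation marker gene mki67 (chromosome 12, 10366617 to 10381282), whose product coats mitotic chromosomes, was the most abundant member by CPM. It had 516, 496 and 464 CPM in wbp11-MO embryos and 269, 282 and 281 CPM in control-MO embryos, a log2 fold change of 0.83 ± 0.05 (SE, with an adjusted p of 5.3e-15 in edgeR). The groups were far apart, although the rise was below the median of the set. On chromosome 12 mki67 lies 647 bases from ndc80, on the same strand, and no other pair of different members lay within 100 kb of each other. The 41 matched names were spread over 18 chromosomes.

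The 4 genes of the spindle midzone and of cytokinesis rose within the narrowest range of any role. The contractile ring gene anln (chromosome 19, 35433155 to 35450857) had 125, 129 and 120.2 CPM in the wbp11-MO libraries, against 47.9, 47.6 and 46.4 CPM in the control-MO libraries, a log2 fold change of 1.40 ± 0.06 (SE, with an adjusted p of 1.2e-18 in edgeR). The gene racgap1 (chromosome 23, 33757173 to 33775309), which encodes a subunit of centralspindlin, had 63.4, 68.6 and 60.0 CPM in wbp11-MO embryos and 25.7, 22.7 and 28.8 CPM in control-MO embryos, a log2 fold change of 1.31 ± 0.08 (SE, with an adjusted p of 2.0e-14 in edgeR). In both genes the lowest wbp11-MO library was more than 2-fold above the highest control-MO library. The microtubule-bundling gene prc1b averaged 42.8 ± 2.80 CPM in wbp11-MO and 16.6 ± 0.903 CPM in control-MO embryos, and ect2, whose product activates the small GTPase RhoA at the cleavage site, averaged 49.1 ± 3.29 CPM in wbp11-MO and 21.3 ± 0.704 CPM in control-MO embryos (SD, n = 3 each). Log2 fold changes of the 4 genes lay between 1.21 and 1.40, all of them at least 2-fold. Rises of at least 2-fold were also those of all 4 spindle assembly genes, 5 of 6 genes of Cdk1 and mitotic entry, 3 of 5 checkpoint, 4 of 8 kinetochore, 2 of 5 anaphase, 1 of 3 passenger and 1 of 6 condensin and mki67 records. Over all tested genes 30.5% were called higher, and 5.9% were called higher by at least 2-fold.

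The order of the members by level per length differed between the groups. In wbp11-MO embryos the order began with nusap1 at 61.0 ± 4.11 FPKM, the ube2c record ENSDARG00000114670 at 59.1 ± 3.27 FPKM, mki67 at 58.5 ± 3.86 FPKM and ccnb1 at 54.3 ± 2.19 FPKM (SD, n = 3 each), and neighbours in this order differed by less than their summed SD. In control-MO embryos the same ube2c record came first at 35.7 ± 2.05 FPKM, then cdk1 at 35.3 ± 1.63 FPKM and mki67 at 34.7 ± 1.34 FPKM (SD, n = 3 each), again within their spread. The gene cdk1, at 45.8 ± 3.11 FPKM (SD, n = 3), came after ccnb1 and plk1 in wbp11-MO embryos. The lowest after birc5b were spc25, cenph and ect2 in wbp11-MO embryos and ect2, bub1bb and cenph in control-MO embryos. Over the 41 tested members, Spearman's rho of the log2 fold change was 0.10 with the control-MO CPM, 0.34 with the length of the gene model and 0.12 with the genomic span; over all 20012 tested genes the same values were 0.02, 0.04 and -0.09. These genes share their 6 libraries, and longer models collect more counts.

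Overlap with other gene records touched 7 of the 42 records. The tpx2 model shares 405 bases with mylk2 on the same strand, and mylk2 averaged 4.09 CPM in wbp11-MO and 2.62 CPM in control-MO embryos. The mad2l1 model lies whole within a record on the opposite strand that averaged 0.501 CPM in wbp11-MO and 0.43 CPM in control-MO embryos. The smc2 model shares 2216 bases with a same-strand record of 4.78 CPM in wbp11-MO and 4.55 CPM in control-MO embryos. The other 4, nusap1, spc25, ncapg and racgap1, overlap opposite-strand records by 37, 138, 7 and 570 bases. Of these partners, ndufaf1 beside nusap1 averaged 31.3 CPM in wbp11-MO and 35.6 CPM in control-MO embryos, and lcorl beside ncapg averaged 65.5 CPM in wbp11-MO and 70.2 CPM in control-MO embryos, and neither was called. The overlapping records of tpx2, mad2l1 and smc2 were thus far fainter than the members themselves.

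Other genes of the cell cycle, taken from lists that hold no member, had median log2 fold changes below that of the mitosis genes on all 9 lists. Their calls stand against 30.5% higher and 31.2% lower over all tested genes. Of 25 further midzone, spindle and cytokinesis genes 22 rose and 2 fell, with a median log2 fold change of 0.96; the spindle motor gene kif11 had a log2 fold change of 1.63 ± 0.06 (SE), and the motor gene kif23, the partner of racgap1 in centralspindlin, averaged 117 ± 0.901 CPM in wbp11-MO and 44.1 ± 4.70 CPM in control-MO embryos (SD, n = 3 each). The genes that fell were the citron kinase genes cita and citb, with log2 fold changes of -0.47 and -1.39. Of 26 further kinetochore genes, matched from 35 symbols, 15 rose and 1 fell (median 0.63), and the shugoshin gene sgo1 averaged 42.7 ± 3.10 CPM in wbp11-MO and 16.3 ± 2.43 CPM in control-MO embryos (SD, n = 3 each). The gene of that list that fell was bod1, with a log2 fold change of -0.29 ± 0.11 (SE). For cohesin and its regulators 13 of 20 rose and 3 fell (median 0.28). Here the cohesin regulators pds5a and pds5b had log2 fold changes of 1.02 and 0.73, while the kleisin gene rad21b fell to 10.9 ± 1.33 CPM in wbp11-MO embryos, against 24.0 ± 1.28 CPM in control-MO embryos (SD, n = 3 each). The other records that fell were smc1a and, of the 2 records of the cohesin deacetylase gene hdac8, ENSDARG00000105159, with a log2 fold change of -0.42. The other hdac8 record, ENSDARG00000003021, was called higher, with 0.41.

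Genes of the anaphase-promoting complex and other regulators included members called in both directions, where 30.5% of all tested genes were called higher and 31.2% lower. The anaphase-promoting complex had 10 of 19 genes higher and 2 lower (median 0.38), with cdc27 and anapc4 at log2 fold changes of 0.94 and 1.22, and anapc11 at -0.44. The activator gene fzr1b, which acts after anaphase in place of cdc20, fell to 23.9 ± 1.44 CPM in wbp11-MO embryos, against 34.9 ± 1.97 CPM in control-MO embryos (SD, n = 3 each). Among further entry and exit regulators 10 of 16 rose and 1, the phosphatase gene cdc14ab, fell (median 0.81). The cyclin F gene ccnf rose by 2.32 on the log2 scale, to 68.1 ± 3.25 CPM in wbp11-MO embryos, against 13.6 ± 1.53 CPM in control-MO embryos (SD, n = 3 each), more than any member, and ccnb3 rose by 1.25. Among cell cycle transcription factors 22 of 25 rose and the other 3 were not called (median 0.57). They included mybl2b, an activator of G2 and M phase genes, with a log2 fold change of 1.12 ± 0.09 (SE), and rbl2, a member of the retinoblastoma family of repressors, with 1.96 ± 0.07 (SE).

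Most DNA synthesis genes rose, and G1 genes went both ways. Of 17 DNA synthesis records 15 rose and 2 were not called, and their median log2 fold change was 0.46, with the helicase gene mcm7 at 0.74 and the licensing gene cdc6 at 1.19. Of 16 G1 cyclin, kinase and inhibitor genes 8 rose and 6 fell (median 0.36). The share that fell was near the 31.2% called lower over all tested genes, of which 30.5% were called higher. The G1 cyclin gene ccnd1 averaged 334 ± 8.37 CPM in wbp11-MO and 154 ± 3.03 CPM in control-MO embryos (SD, n = 3 each). The Cdk inhibitor genes went both ways, cdkn1a with a log2 fold change of 2.04 ± 0.10, cdkn1d with -1.38 ± 0.09 and cdkn1bb with -0.26 ± 0.07 (SE). Differences between these lists and the mitotic set were not tested.

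**Figure D5:**
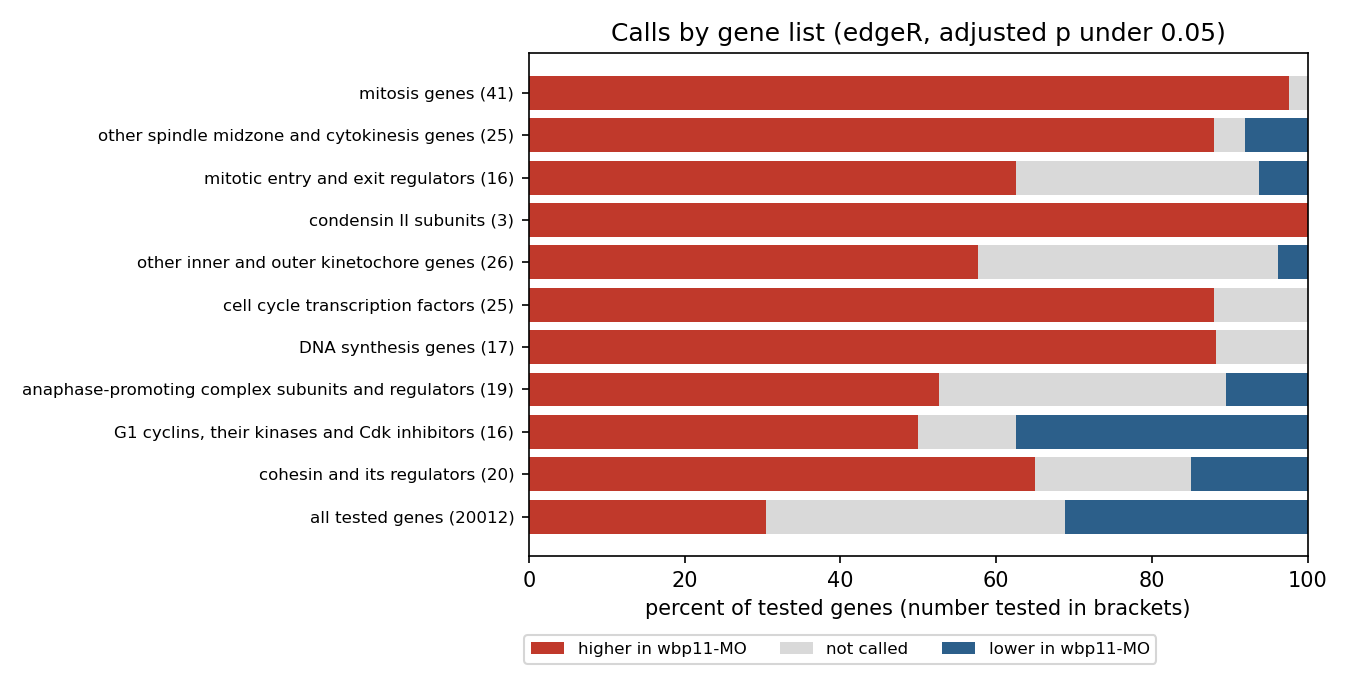
Each bar divides the tested genes of a list, with their number in brackets, into those called higher in wbp11-MO, not called, and called lower in wbp11-MO, in percent (edgeR, adjusted p under 0.05). The mitosis genes stand at the top with 97.6% higher, and all tested genes at the bottom with 30.5% higher and 31.2% lower.

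Markers of other cell types are given against the shares of 30.5% higher and 31.2% lower over all tested genes. Of 20 neural progenitor marker records 12 rose and 5 fell, and their summed level ran from 1775 to 1912 CPM in wbp11-MO and from 1534 to 1583 CPM in control-MO libraries. Among them notch1a and notch3 had log2 fold changes of 2.03 and 1.28, and the radial glia genes fabp7a and gfap -0.69 and -0.38. The other records that fell were sox1a, sox1b and pax6a, and records of sox2, her4.1 and her9 were not called. Of 15 markers of differentiated neurons 14 fell, among them sypb and gad1b with log2 fold changes of -2.34 and -1.81, and 1, elavl3, rose, with sums from 1739 to 1851 CPM in wbp11-MO and from 3421 to 3493 CPM in control-MO libraries. Retinal ciliary margin markers had 3 of 10 higher, near the share over all genes, and 5 lower, and summed to between 276 and 292 CPM in wbp11-MO and between 336 and 354 CPM in control-MO libraries. The sums of the neuron and margin markers were thus lower in every wbp11-MO library, and that of the progenitor markers higher. A few abundant genes moved the progenitor sum in both directions. The rises of notch1a and notch3 together exceeded that of the sum, while falls of fabp7a and gfap lowered it. The gene fabp7a averaged 309 ± 7.44 CPM in wbp11-MO and 498 ± 30.0 CPM in control-MO libraries (SD, n = 3 each). For gfap the values were 223 ± 10.4 CPM in wbp11-MO and 290 ± 9.24 CPM in control-MO libraries (SD, n = 3 each). In CPM, notch1a averaged 240 ± 9.95 in wbp11-MO and 58.6 ± 1.75 in control-MO libraries (SD, n = 3 each). The values of notch3 were 384 ± 20.3 CPM in wbp11-MO and 158 ± 3.66 CPM in control-MO libraries (SD, n = 3 each). The sum alone therefore does not show whether the progenitor markers rose as a set. Their median log2 fold change was 0.45, against 0.00 over all tested genes, and this difference was not tested.

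The summed level of the blood, muscle and germ cell lists was higher in every wbp11-MO library. Blood markers had 4 of 11 records higher and 4 lower, close to the shares over all tested genes. The erythroid genes alas2, with 163 ± 8.16 CPM in wbp11-MO and 66.3 ± 2.71 CPM in control-MO embryos, and hbae1.1, with 42.6 ± 7.69 CPM in wbp11-MO and 20.9 ± 1.58 CPM in control-MO embryos (SD, n = 3 each), rose, while the myeloid genes mpx and mpeg1.1 fell, with log2 fold changes of -1.21 and -0.77. The other records that fell were lcp1 and coro1a. Not every erythroid or myeloid gene moved, since records of hbbe1.1, spi1b, lyz and myb were not called or not tested. The blood list had sums from 616 to 674 CPM in wbp11-MO and from 488 to 580.2 CPM in control-MO libraries. Most of the difference between the group means of these sums was that of alas2. Muscle markers had 6 of 12 higher and 4 lower, with sums from 46360.1 to 49534 CPM in wbp11-MO and from 40727 to 44013 CPM in control-MO libraries. Abundant genes moved this sum in both directions. The gene ckma averaged 6995 ± 414 CPM in wbp11-MO and 3779 ± 196 CPM in control-MO libraries, and pvalb2 5173 ± 47.5 CPM in wbp11-MO and 7072 ± 310 CPM in control-MO libraries (SD, n = 3 each). The muscle sum alone therefore does not show whether these markers rose as a set. Germ cell markers, with 1 of 7 tested genes higher, were faint and summed to between 16.1 and 18.7 CPM in wbp11-MO and between 11.6 and 12.2 CPM in control-MO libraries. The called gene was ddx4, at 5.64 ± 1.19 CPM in wbp11-MO and 2.98 ± 0.217 CPM in control-MO libraries (SD, n = 3 each). No marker of these 6 lists had 0 counts in all libraries. The part of any of these tissues in the rise of the mitosis genes was not tested. Embryos of another age were not analysed here, so an effect of the morpholino and a difference in developmental stage cannot be told apart.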

How the data were processed

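Raw read counts and FPKM per gene record were deposited by the authors for all 6 libraries, per the file headers. FastQC 0.12.1, HTSeq 2.0.5 and the GRCz11 build appear in the submitters' processing notes. No source used here gives the strand setting, the aligner, the handling of multiply mapped reads or the annotation release, so counts of paralogs and overlapping genes are uncertain. The deposited FPKM equals count over gene length and library total, and served for ratios and levels per length. Counts were tested in edgeR 4.0.16 (R 4.3.3) over all genes kept by filterByExpr, with TMM factors, no block for replicate number, the quasi-likelihood F-test and Benjamini-Hochberg adjustment. This procedure was also run on simulated counts in which far fewer genes changed than were called here. That run therefore does not check the TMM scaling under a change as broad as this one. CPM use the TMM-scaled totals, and each SE is the log2 fold change over the square root of F. DESeq2 1.42.0, limma 3.58.1 (voom), other factors and filters, the block and leaving out each library were alternatives. Ratios used scipy 1.17.1. Libraries of a group differed beyond sampling noise (chi-square per degree of freedom 2.59 to 3.93). The members, lists and tests were chosen with earlier results of these data known. Values in every library are given for the 2 most significant called members of each role, the 3 largest and 3 smallest changes and members not called; of other lists, up to 2 called genes per direction, of which 1 is not reported here. Genes of the lists were matched by the table's symbols only, and those without a match were not used here. Pools are biological replicates per the labels' protocols.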

Additional observations from a re-analysis of the deposited data

How the results depend on the processing

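Over 14 alternatives set with the design, 571 of 574 recomputed member values kept their direction and their side of the threshold, and 0 reversed. The 3 lost calls were all of spc24. The count of members called higher was 39 or 40 in each alternative, and that called lower 0. Leaving out a library gave from 39 to 40 members higher. The median log2 fold change of the members was 1.07, and 0.995 with library totals in place of TMM factors, where the median over all tested genes was -0.07. The labels do not say whether the same replicate numbers pair the libraries. Deviations of same-numbered libraries from their group means correlated at -0.02, -0.05 and 0.01. For libraries of different numbers these values ran from -0.04 to 0.06. With 3 libraries in each group such values cannot decide whether the libraries were paired. With the replicate block 40 members were called higher and 5977 genes in all, against 6105 without it. Depth limits birc5b and, among tested members, cenph most.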
